A study of Homo sapiens with 30 samples.

Results

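Chromosome 13 was examined as a strip of open chromatin that favoured the TeloHAEC line over the Eahy926 line. All peaks of the 30 peak lists on hg19 chromosome 13 were taken, and they gave 2556 of the 107658 autosomal regions compared here, each set around a peak's summit. The lists hold 68825 summits on chromosome 13 among 3137748 in all. The chromosome was chosen from the untreated control libraries, so the difference between the lines in those controls is a description with no test. Tests between the lines were made only in the 18 treated libraries, which that choice did not use.

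The data are ATAC-seq libraries, in which the Tn5 transposase inserts adapters into accessible DNA. TeloHAEC is an aortic endothelial cell line immortalised with telomerase, and Eahy926 is a hybrid line with an endothelial parent and a lung carcinoma parent. All cells were of the parental genotype. Each line had 5 groups of 3 biological replicates: untreated cells in normal growth medium at day 0 and at day 1, and 3 day 1 groups exposed for 24 h to IL1b (10 ng/ml), TNFa (10 ng/ml) or a changed VEGF supply. VEGF was added to Eahy926, whose medium normally has none, and left out for TeloHAEC, whose medium contains it, so the VEGF groups are opposite changes. The lines also grew in different base media, and each is a single line, so line and medium cannot be told apart. The libraries kept 3577273 to 11404955 tags, and tags were 30 bp long on day 0 and 40 bp on day 1. The labelled endothelial type was checked at 1 start for each marker gene. A peak lay within 1 kb of the KDR start in 15 of 15 TeloHAEC and 15 of 15 Eahy926 libraries, of CDH5 in 14 and 13, and of TIE1 in 14 and 15. Few libraries had one at TEK (2 and 2) or VWF (1 and 0). No library had one at PECAM1, ERG or EGFL7, where other starts were not looked at, and the 4 blood cell markers had none in either line. Of 8 epithelial markers 5 had none in TeloHAEC and 6 none in Eahy926, with ELF3 in 12 and 6 libraries. Of 5 mesenchymal and smooth muscle markers 2 and 4 had none, with ACTA2 in 12 TeloHAEC and 0 Eahy926 libraries, TAGLN in 6 and 0, and PDGFRB in 9 and 11. The part of other cell states in the results was not tested.

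Accessible chromatin is found at promoters, where transcription begins, and at distal elements such as enhancers. Promoters of widely used genes are open in most cells, whereas distal elements differ more between cell types. Chromosome 13 is acrocentric and gene-poor, and it carries the tumour suppressor RB1, the repair gene BRCA2, the type IV collagen pair COL4A1 and COL4A2, the VEGF receptor gene FLT1 and the coagulation factor genes F7 and F10. A peak caller sets each pileup of tags against the tags around it, so a wide rise in tags lifts both peaks and their local background.

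Promoter sequences are shown for the genes on which the promoter results turn. Among called promoter regions within 250 bp of a written gene start and with an entry in the RefSeq table, they are the 3 with the largest rise in TeloHAEC and the 3 with the largest fall. WDFY2 and TMCO3 have no entry. A further 2 were open in all 30 libraries and did not pass the test. Each run is the 250 bases before the RefSeq gene start in GRCh38.p14, 5′ to 3′ on the gene's strand. No sequence of hg19 was used, so the runs were not aligned to the regions. Capitals mark matches to the ETS core (CCGGAA or TTCCGG), the CCAAT box (CCAAT or ATTGG) and the GC box (GGGCGG or CCGCCC), searched on both strands. Matches may overlap. The first 3 were higher in TeloHAEC.
KBTBD6: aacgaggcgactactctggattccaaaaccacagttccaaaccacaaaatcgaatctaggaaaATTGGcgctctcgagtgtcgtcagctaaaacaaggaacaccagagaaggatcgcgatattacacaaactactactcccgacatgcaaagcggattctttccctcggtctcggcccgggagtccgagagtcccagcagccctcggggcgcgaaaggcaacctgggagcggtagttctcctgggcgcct
DIS3: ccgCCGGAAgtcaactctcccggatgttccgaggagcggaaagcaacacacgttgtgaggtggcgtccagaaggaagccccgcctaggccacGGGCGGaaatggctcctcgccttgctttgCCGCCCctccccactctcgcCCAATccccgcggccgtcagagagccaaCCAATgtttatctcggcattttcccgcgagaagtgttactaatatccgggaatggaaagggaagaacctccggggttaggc
MRPS31: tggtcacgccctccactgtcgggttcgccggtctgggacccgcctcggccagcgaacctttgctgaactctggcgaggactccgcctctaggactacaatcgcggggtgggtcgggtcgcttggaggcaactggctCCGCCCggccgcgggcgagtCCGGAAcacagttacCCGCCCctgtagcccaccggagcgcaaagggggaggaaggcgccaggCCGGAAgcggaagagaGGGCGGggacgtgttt
The next 3 were lower in TeloHAEC.
SUGT1: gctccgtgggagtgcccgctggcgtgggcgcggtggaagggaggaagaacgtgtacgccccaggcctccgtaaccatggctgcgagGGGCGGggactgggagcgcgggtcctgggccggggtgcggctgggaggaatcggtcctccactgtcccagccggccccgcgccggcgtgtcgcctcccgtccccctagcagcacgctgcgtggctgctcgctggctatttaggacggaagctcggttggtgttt
WASF3: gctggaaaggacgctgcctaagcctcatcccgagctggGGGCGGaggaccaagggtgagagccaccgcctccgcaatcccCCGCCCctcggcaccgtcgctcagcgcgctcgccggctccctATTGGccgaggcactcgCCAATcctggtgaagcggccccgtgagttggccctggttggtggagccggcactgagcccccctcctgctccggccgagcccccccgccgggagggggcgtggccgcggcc
SLC7A1: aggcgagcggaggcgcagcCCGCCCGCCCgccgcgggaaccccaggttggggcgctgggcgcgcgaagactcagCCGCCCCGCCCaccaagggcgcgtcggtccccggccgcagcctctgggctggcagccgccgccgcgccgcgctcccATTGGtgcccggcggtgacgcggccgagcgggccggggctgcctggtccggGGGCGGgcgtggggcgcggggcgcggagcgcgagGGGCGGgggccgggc
The last pair did not pass the test.
BRCA2: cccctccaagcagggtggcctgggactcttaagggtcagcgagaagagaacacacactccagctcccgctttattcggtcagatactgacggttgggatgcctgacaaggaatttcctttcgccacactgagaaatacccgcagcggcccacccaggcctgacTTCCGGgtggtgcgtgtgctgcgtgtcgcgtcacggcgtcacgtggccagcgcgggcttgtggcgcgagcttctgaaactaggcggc
TPT1: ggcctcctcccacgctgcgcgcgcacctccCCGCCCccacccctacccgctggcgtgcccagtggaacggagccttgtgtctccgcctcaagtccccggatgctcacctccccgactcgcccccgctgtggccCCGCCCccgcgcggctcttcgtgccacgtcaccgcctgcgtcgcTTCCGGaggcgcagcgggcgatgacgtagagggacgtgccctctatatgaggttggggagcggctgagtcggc

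These promoters differed in composition within each set. KBTBD6 held 54.4% G and C, with 1 CCAAT box and neither of the other motifs. MRPS31 held 68.8%, with 2 ETS cores and 3 GC boxes. Among those lower in TeloHAEC, SLC7A1 held 84.4%, with 6 GC boxes and 1 CCAAT box. SUGT1 held 71.2%, with 1 GC box only. An ETS core occurred in 12.2% of the 892 chromosome 13 promoters of the table and in 14.5% of all 35116. The matching shares were 29.6% and 32.0% for the CCAAT box, and 32.1% and 42.6% for the GC box.

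Chromosome 13 held a larger share of the strongest peaks in TeloHAEC than in Eahy926 in every group. Of the 45000 strongest autosomal peaks of a library, 710 to 754 lay on chromosome 13 in the 6 Eahy926 controls, and 1024 to 1182 in the 6 TeloHAEC controls. This is 1.63% ± 0.0454 (SD, n = 6) against 2.49% ± 0.152 (SD, n = 6), a ratio of 1.53. On day 0 the shares were 1.59% and 2.36%, and on day 1 they were 1.67% and 2.62%, so the gap was present on both days. Among treated libraries Eahy926 held 1.70% ± 0.0426 (SD, n = 9). TeloHAEC held 2.57% ± 0.0403 (SD, n = 9), and the ranges of 1.64 to 1.78% and 2.50 to 2.63% did not overlap. In the unshortened lists the shares were 1.72 to 1.92% and 2.45 to 2.71%.

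**Figure D1:**
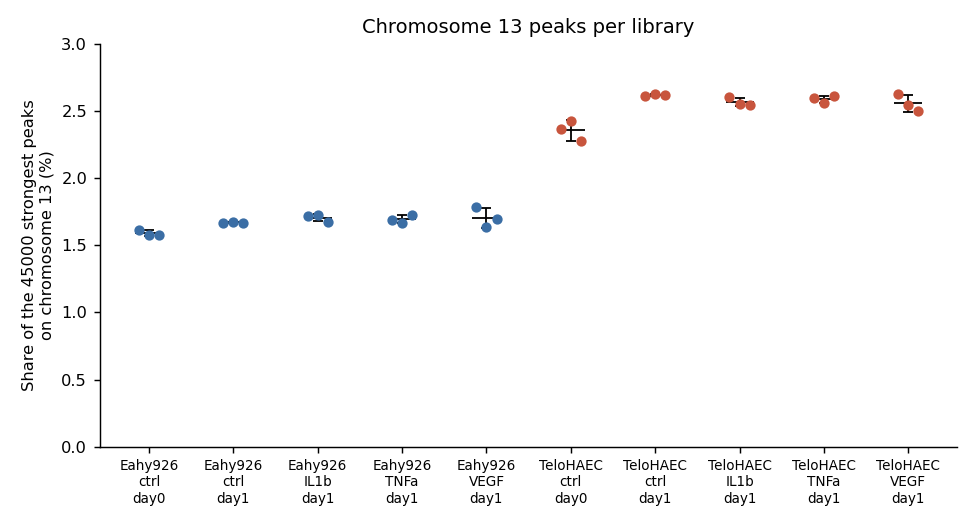
The vertical axis is the share of a library's 45000 strongest peaks on chromosome 13, in percent. Points are libraries, the bar and whiskers are the mean ± SD of 3 libraries, and blue and red mark Eahy926 and TeloHAEC. All 15 TeloHAEC libraries lie between 2.28 and 2.63%, above the highest Eahy926 library at 1.78%.

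The other 21 autosomes showed smaller ratios of TeloHAEC to Eahy926 peaks. Among controls these ran from 0.857 on chromosome 12 to 1.13 on chromosome 6. Among treated libraries chromosome 13 stood at 1.51, and the others ran from 0.861 to 1.16. By treatment, the ratio was 1.5 with IL1b, 1.53 with TNFa and 1.5 with changed VEGF.

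**Figure D2:**
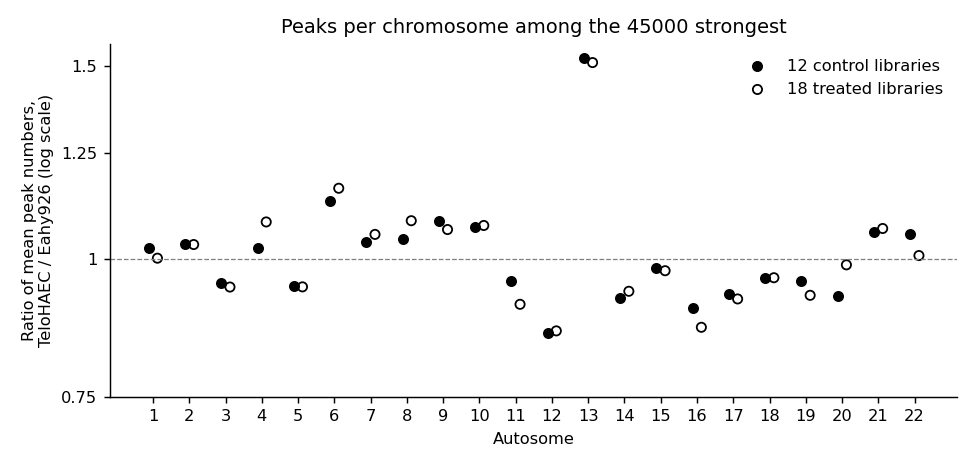
The vertical log axis is the ratio of mean peak numbers in TeloHAEC to Eahy926 for each autosome, with filled points for the 12 control and open points for the 18 treated libraries. Chromosome 13 lies at 1.53 and 1.51, and the nearest autosome, chromosome 6, at 1.13 and 1.16.

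Along the chromosome, the excess in TeloHAEC controls was broad, but some stretches departed from it. In 5 Mb windows, every TeloHAEC control had more peaks than every Eahy926 control in 13 of 21 windows, and every one had fewer in 2. No matching share over all autosomal windows is given, and these controls had chosen the chromosome, so the counts are a description only. From 40 to 45 Mb, which holds FOXO1, ELF1 and TNFSF11, the 6 Eahy926 controls had 67 to 74 peaks and the TeloHAEC controls 133 to 150. The window from 105 to 110 Mb, which holds the ephrin ligand gene EFNB2, had 15 to 24 against 45 to 49, and that from 95 to 100 Mb had 58 to 70 against 102 to 113. These windows do not overlap between the lines. By contrast, the counts overlapped from 60 to 65 Mb with 20 to 28 in Eahy926 and 14 to 24 in TeloHAEC, and from 65 to 70 Mb with 13 to 21 and 12 to 18. From 85 to 90 Mb, around the neuronal membrane protein genes SLITRK6 and SLITRK5, the order turned: Eahy926 controls had 5 to 12 peaks and TeloHAEC controls 0 to 1.

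**Figure D3:**
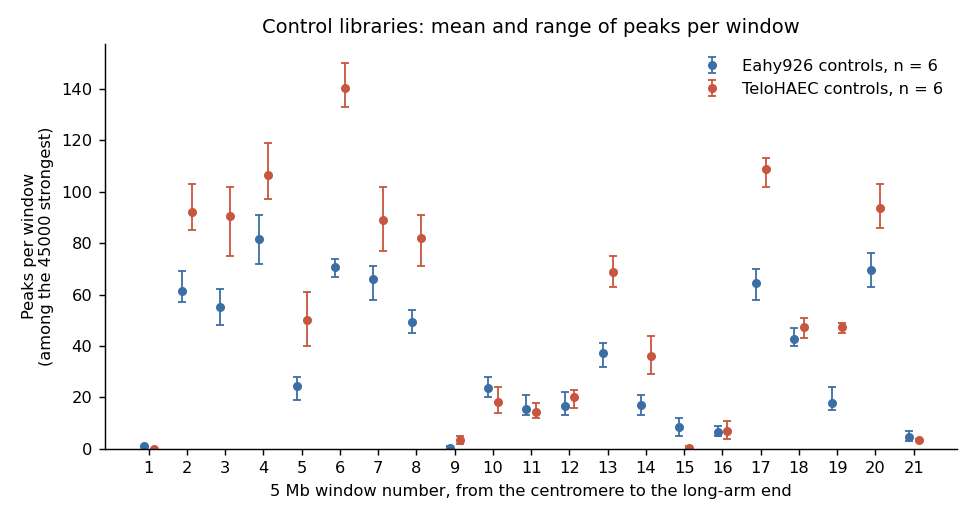
The horizontal axis numbers the 5 Mb windows along the long arm, starting with the one from 15 to 20 Mb. The vertical axis counts peaks among the 45000 strongest, with points and whiskers for the mean and range of 6 controls per line. TeloHAEC lies above Eahy926 without overlap in 13 of 21 windows and below it in windows 1 and 15, with no matching share given for other autosomes.

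A window was called broadly shifted where at least 75% of its regions lay on one side of the autosomal median difference between the lines. The difference was taken on a rank score, the log2 of a peak's standing in its library's list, in which 1 unit is a doubling in rank and a region without a peak scores 0. Of the 2556 regions, 1414 had a strong peak in at least 3 control libraries, and 1123 of these (79.4%) lay above the autosomal median. Their median difference was 0.42 higher in TeloHAEC, beside -0.07 over all autosomes. In controls 13 windows were broadly higher in TeloHAEC, 2 broadly lower and 6 neither. Over windows with at least 10 regions, 12 of 17 on chromosome 13 (70.6%) were broadly higher, and 31 of 532 on the other autosomes (5.83%). A minority of the 1414 regions stood apart from their window: 55 exceeded the window's median by more than 2 units and 6 fell below it by as much. No matching share over other autosomes is given, so these counts do not set chromosome 13 apart.

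Tests in the treated libraries gave the same picture by window. Peaks per window were compared with limma over all autosomal windows, where 36.7% of 564 windows rose in TeloHAEC and 41.5% fell, 78.2% in all (two-sided, Benjamini-Hochberg adjusted p under 0.05). On chromosome 13, 15 of 21 windows rose and 4 fell. In the window from 40 to 45 Mb the 9 Eahy926 libraries had 67 to 85 peaks and the 9 TeloHAEC libraries 128 to 145, a log2 difference of 0.86 ± 0.04 (SE, limma adjusted p = 2.21e-14). The largest rise was from 55 to 60 Mb, where few peaks were found: 0 to 1 in Eahy926 and 4 to 7 in TeloHAEC, a log2 difference of 2.26 ± 0.15 (SE, limma adjusted p = 7.31e-12). From 105 to 110 Mb the counts were 16 to 22 and 40 to 52, a difference of 1.20 ± 0.07 (SE, limma adjusted p = 3.72e-13).

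The 4 windows that fell were those from 15 to 20, 60 to 65, 65 to 70 and 85 to 90 Mb. From 85 to 90 Mb, Eahy926 had 7 to 12 peaks and TeloHAEC 0 to 1, a log2 difference of -3.27 ± 0.11 (SE, limma adjusted p = 1.1e-16). The falls from 60 to 65 Mb (-0.34 ± 0.06, SE, limma adjusted p = 3.11e-05) and from 65 to 70 Mb (-0.19 ± 0.06, SE, limma adjusted p = 0.0094) were small and came from part of each window. With 2 Mb windows, the stretch from 62 to 64 Mb had 5 to 11 peaks in Eahy926 and none in TeloHAEC, and that from 64 to 66 Mb had 7 to 15 and 0 to 2. This gene-poor stretch lies between the protocadherin genes PCDH20 and PCDH9. Each of the 3 windows of 2 Mb from 84 to 90 Mb had 2 to 7 or 3 to 7 peaks in Eahy926 and 0 to 1 in TeloHAEC. The window from 15 to 20 Mb held 1 peak in each Eahy926 library and none in TeloHAEC, so the counts have no spread within a line.

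The regions open in every library carried the shift as well, and so did their local background. A total of 205 regions on chromosome 13 had a peak in all 30 libraries, among 12535 on all autosomes, and 12 windows held at least 5 of them. Their median rank score rose in 10 of the 12 windows and fell in none by limma, where 12.7% of 512 autosomal windows rose and 39.8% fell, 52.5% in all. The median over the 12 windows was 0.58, and it ranged from -0.03 from 35 to 40 Mb to 1.47 from 40 to 45 Mb. The median of the other 500 windows was -0.19, and 26 of them (5.2%) exceeded the chromosome 13 median. When lists were ordered by fold enrichment over the local background in place of p, 3 windows rose and 1 fell.

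Local background, the tag density around a peak as implied by its pileup and fold enrichment, was ranked among the constitutive regions of its own library. With no control library, the caller took it from the same library over 10000 bp. That span includes the peak and its neighbours, so background is not a measure separate from the peaks. It was higher in TeloHAEC in 12 of 12 windows by limma, where 42.2% of 512 autosomal windows rose and 35.9% fell, 78.1% in all. From 50 to 55 Mb, which includes WDFY2, ATP7B and THSD1, the window median lay at percentile 29.7 to 38.3 in the 9 treated Eahy926 libraries and 65.1 to 74.1 in the 9 TeloHAEC libraries. The difference there was 38.0 ± 1.46 percentile points (SE, limma adjusted p = 3.99e-19), and the smallest of the 12, from 80 to 85 Mb, was 17.7 ± 1.83 (SE, limma adjusted p = 7.17e-10). In controls the lines were likewise apart from 50 to 55 Mb, at 34.4 to 48.5 and 69.5 to 77.7. Over the other 500 windows the median difference was 1.11 percentile points, and 22 windows (4.4%) exceeded the chromosome 13 median of 26.6. Background was thus higher in TeloHAEC in every window measured, but in some windows its size did not match that of the peaks. From 100 to 105 Mb it differed by 37.4 percentile points, with a log2 difference in peaks of 0.16. From 35 to 40 Mb it differed by 18.1, with 1.12 in peaks and -0.03 in score. From 50 to 55 Mb the score differed by 0.31 (limma adjusted p = 0.176). The 4 windows whose peaks fell held too few such regions to be measured. The part of background in the region results was not tested. The peak lists carry no measure of DNA copy number, so copy number and chromatin cannot be told apart here.

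**Figure D4:**
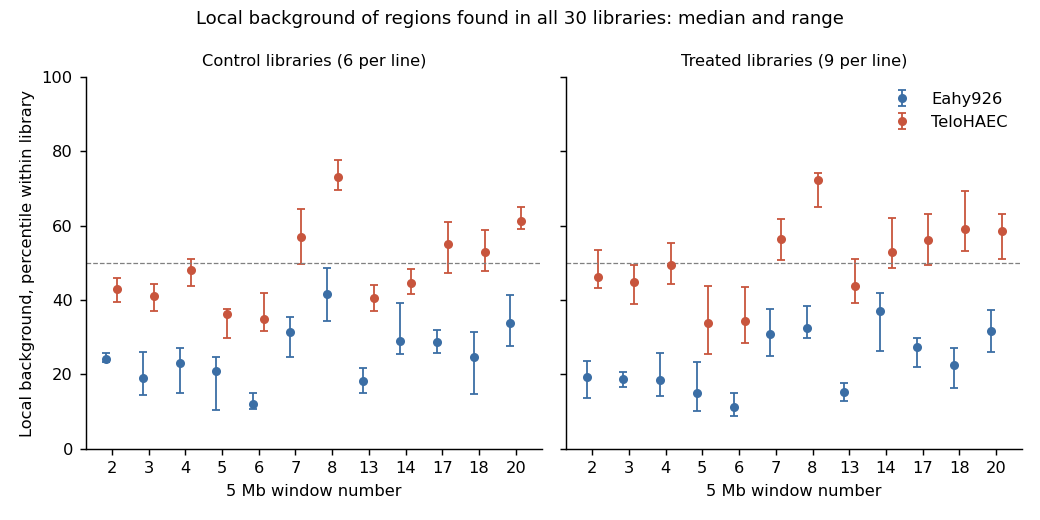
The vertical axis is the percentile of local background among a library's regions found in all 30 libraries, shown as the median and range of the window medians over 6 control (left) or 9 treated (right) libraries per line. The horizontal axis gives the 12 windows with at least 5 such regions, and the dashed line is percentile 50. TeloHAEC lies above Eahy926 in each, with treated medians of 72.4 and 32.6 in window 8.

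Single regions were then compared across all autosomes in the treated libraries. Of the 2556 regions, 1677 had a strong peak in at least 3 treated libraries and were tested. Libraries of 1 line could meet this filter alone, so it favoured regions high in only 1 line. By limma, 698 rose in TeloHAEC and 147 fell, where 22.2% of all 72352 autosomal regions rose and 21.1% fell, 43.3% in all. The median difference was 0.34 on chromosome 13 and -0.03 over all regions, and 1263 of 1677 differences were above 0. Without the filter 620 of 2341 regions rose and 127 fell. The medians were then 0.14 on chromosome 13 and -0.02 over all regions. Scores centred on each window's median over constitutive regions gave 174 risen and 436 fallen of 1456 tested. This centring moves all regions of a window alike, by the shift of regions open in every library, whose median on the chromosome (0.72) exceeds that of all its tested regions (0.34). A turn towards falls follows from that, and nothing about single regions was read from it. Without overlap between 9 and 9 libraries, 205 regions were higher and 38 lower, where 6.73% and 4.56% of all autosomal regions were. In controls 243 of 1414 were higher without overlap and 44 lower, where 8.66% and 6.67% of all were; the controls had chosen the chromosome. Of the tested regions, 89 stood more than 2 units above their window's median and 13 as far below, again with no matching share given for other autosomes.

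**Figure D5:**
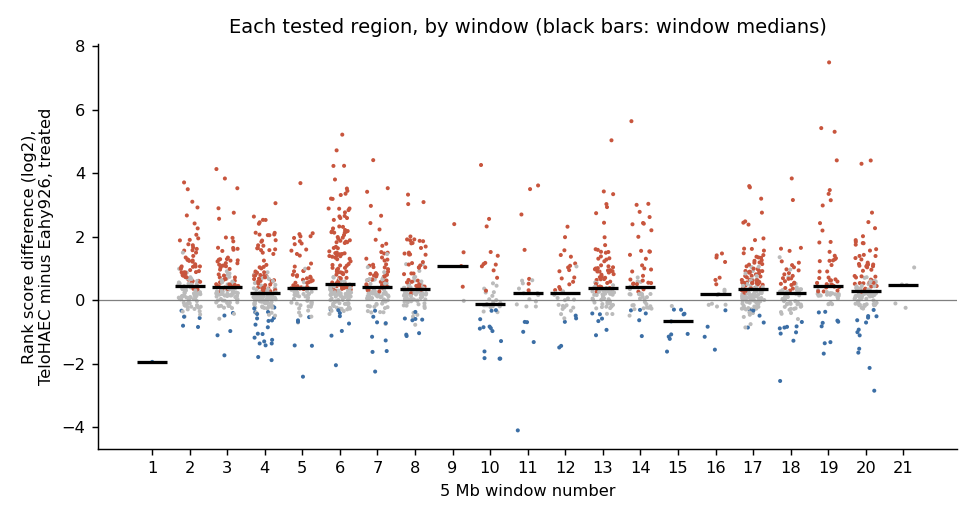
Each point is 1 of 1677 tested regions, placed by its 5 Mb window, and the vertical axis is its rank score difference on the log2 scale, TeloHAEC minus Eahy926 in treated libraries. Red points rose, blue points fell, grey points did not pass the test, and black bars are window medians. Most medians lie above 0, as at 0.49 in window 6, and that of window 15 lies at -0.67.

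More regions rose than fell both at promoters and elsewhere. Of 191 tested regions within 1 kb of a written gene start, 39 rose (20.4%) and 7 fell (3.66%), with a median of 0.28. Among the other 1486 regions, 659 rose (44.3%) and 140 fell (9.42%), with a median of 0.34. Over all autosomal regions, promoters and others together, the shares were 22.2% and 21.1%. The share of promoter regions that rose lay near the first, and the share that fell lay below the second. Shares over autosomal promoters alone were not computed. For those open in all 30 libraries the medians were 0.45 over 74 promoter regions and 1.04 over 131 other regions, beside -0.25 over all 12535 such autosomal regions. Local background was higher in TeloHAEC by a median of 25.0 percentile points at the promoters and 19.3 at the other regions. The 2 classes were not tested against each other.

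Of the 10 largest rises among called regions without overlap between the treated groups, 8 had no written gene start within 50 kb. The region at chr13:109115628-109116128, between the cytokine gene TNFSF13B (194 kb) and the myosin gene MYO16 (133 kb), had a peak in 9 of 9 treated TeloHAEC libraries and in 0 of 9 of Eahy926. Its rank score was 5.74 at the lowest, 6.71 at the median and 9.82 at the highest in TeloHAEC and 0 throughout in Eahy926, a difference of 7.49 ± 0.54 (SE, limma adjusted p = 1.89e-10). In controls it had a peak in 6 of 6 and 0 of 6. A score of 0 means no peak in the shortened list, not closed chromatin, so fitted differences against it depend on the list length.

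Another 6 of the 10 largest rises also had a peak in all 9 treated TeloHAEC libraries and a score of 0 in every Eahy926 one. Of these, chr13:81536250-81536750 lay 621 kb beyond SPRY2, which encodes an inhibitor of receptor tyrosine kinase signalling, and rose by 5.63 ± 0.52 (SE, limma adjusted p = 3.79e-09). A pair of regions lay on the side of EFNB2, a ligand of Eph receptors that marks arterial endothelium: chr13:106095214-106095714 at 1092 kb and chr13:106971313-106971813 at 216 kb. They rose by 5.42 ± 0.47 and 5.30 ± 0.38 (SE, limma adjusted p = 1.71e-09 and 1.89e-10). The one at chr13:43099209-43099709, 49 kb from TNFSF11, which encodes the osteoclast factor RANKL, scored 3.18 to 7.67 in TeloHAEC and rose by 5.21 ± 0.50 (SE, limma adjusted p = 7.19e-09). At chr13:77000084-77000584, 460 kb from KCTD12, the difference was 5.03 ± 0.53 (SE, limma adjusted p = 3.03e-08). The last with this pattern, chr13:107854915-107855415, lay 635 kb from ARGLU1 and rose by 4.40 ± 0.44 (SE, limma adjusted p = 1.42e-08), though 1 of 6 Eahy926 controls had a peak there.

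The remaining 3 of these rises had peaks in treated Eahy926 libraries too. At chr13:113841518-113842018, between the protein Z gene PROZ (29 kb) and PCID2 (21 kb), all 30 libraries had a peak. Its treated scores ran from 5.37 to 11.36 with a median of 6.53 in TeloHAEC, and from 1.997 to 4.65 with a median of 3.39 in Eahy926. The groups did not overlap, and the difference was 4.40 ± 0.74 (SE, limma adjusted p = 3.18e-05). The regions at chr13:44817245-44817745 and chr13:45479058-45479558 flank TSC22D1, a leucine zipper transcription factor gene, at 333 and 329 kb. They had a peak in 5 and 7 of 9 treated Eahy926 libraries and in all 9 of TeloHAEC, and rose by 4.72 ± 0.54 and 4.41 ± 0.56 (SE, limma adjusted p = 9.55e-08 and 4.99e-07).

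Falls were fewer and smaller. Of the 10 largest among called regions without overlap between the treated groups, 3 lay in the stretch between PCDH20 and PCDH9. There, chr13:65297802-65298302 scored 3.24 to 7.07 with a median of 4.49 in treated Eahy926 libraries and 0 to 1.37 with a median of 0.89 in TeloHAEC. The groups did not overlap, and the difference was -4.10 ± 0.46 (SE, limma adjusted p = 8.74e-08). In the same stretch, chr13:63217070-63217570 and chr13:63764822-63765322 had a peak in 9 of 9 Eahy926 libraries and in none of TeloHAEC, with differences of -1.84 ± 0.29 and -1.83 ± 0.28 (SE, limma adjusted p = 1.03e-05 and 9.93e-06).

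Of the next falls, chr13:38191239-38191739 was 19 kb from POSTN, which encodes the matrix protein periostin. It scored 0.56 to 3.61 in treated Eahy926 libraries and 0 in all 9 of TeloHAEC, a difference of -2.41 ± 0.32 (SE, limma adjusted p = 1.04e-06). Another, chr13:102237517-102238017, 133 kb from the integrin-like gene ITGBL1, differed by -2.55 ± 0.33 (SE, limma adjusted p = 6.7e-07), and it had a peak in 9 treated Eahy926 and 0 treated TeloHAEC libraries. That at chr13:40139660-40140160, 37 kb from LHFPL6, differed by -2.05 ± 0.29 (SE, limma adjusted p = 2.11e-06), with peaks in 9 Eahy926 and 2 TeloHAEC libraries.

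The other 4 falls were spread along the arm. The region at chr13:47378318-47378818, 7 kb from the esterase gene ESD, differed by -2.25 ± 0.30 (SE, limma adjusted p = 1.29e-06). At chr13:111607344-111607844, 40 kb from ANKRD10, the difference was -2.14 ± 0.35 (SE, limma adjusted p = 2.52e-05). That at chr13:19479173-19479673, the only strong peak of the window nearest the centromere, was seen in 9 of 9 Eahy926 and 0 of 9 TeloHAEC libraries and differed by -1.95 ± 0.25 (SE, limma adjusted p = 5.34e-07). In the window from 30 to 35 Mb, chr13:32130458-32130958, 183 kb from RXFP2, differed by -1.89 ± 0.33 (SE, limma adjusted p = 4.22e-05).

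Of the 39 promoter regions that rose, the largest difference was at KBTBD6. KBTBD6, an adaptor of a CUL3 ubiquitin ligase, whose promoter is printed above, had its region at chr13:41706698-41707198. It scored 3.79 to 7.58 with a median of 6.22 in treated TeloHAEC libraries and 1.69 to 3.25 with a median of 2.49 in Eahy926, without overlap. The difference was 3.31 ± 0.56 (SE, limma adjusted p = 3.37e-05). The region 615 bp from the start of CRYL1 differed by 3.10 ± 0.45 (SE, limma adjusted p = 4.33e-06). DIS3, the catalytic subunit of the RNA exosome, had its region at chr13:73355874-73356374, which scored 4.20 to 9.28 in TeloHAEC and 2.30 to 4.57 in Eahy926. The groups overlapped slightly, and the difference was 2.31 ± 0.58 (SE, limma adjusted p = 0.00228).

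LATS2, a kinase of the Hippo pathway, differed by 1.73 ± 0.42 at its promoter (SE, limma adjusted p = 0.00183), with 2.73 to 4.77 in treated TeloHAEC libraries and 0.37 to 2.86 in Eahy926. The promoter of MRPS31, a mitochondrial ribosome protein gene, at chr13:41345218-41345718, scored 1.249 to 8.20 in TeloHAEC and 1.55 to 4.34 in Eahy926, a difference of 1.87 ± 0.62 (SE, limma adjusted p = 0.016). With lists ordered by fold enrichment, DIS3 (0.44, adjusted p = 0.518), LATS2 (0.37, adjusted p = 0.455) and MRPS31 (1.35, adjusted p = 0.0895) no longer passed the limma test, and KBTBD6 and CRYL1 did. With window-centred scores LATS2 (0.98, limma adjusted p = 0.0913) and MRPS31 (0.40, limma adjusted p = 0.64) lost the call too.

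The 7 promoter regions that fell were those of SUGT1, TMCO3, WASF3, TPP2, SLC7A1, PROSER1 and LMO7. SUGT1, a co-chaperone needed at the kinetochore, scored 1.64 to 3.42 with a median of 2.08 in treated TeloHAEC libraries at chr13:53226597-53227097 and 2.72 to 5.39 with a median of 3.44 in Eahy926. The difference was -1.13 ± 0.41 (SE, limma adjusted p = 0.0282), but in controls it was 0.38 the other way. TMCO3 differed by -1.11 ± 0.31 (SE, limma adjusted p = 0.00488), and in controls by 1.13 the other way. The SUGT1 call ended when Eahy926 TNFa replicate 2, Eahy926 IL1b replicate 2, TeloHAEC IL1b replicate 3 or TeloHAEC VEGF replicate 2 was left out. Its differences were then -1.06 to -0.89, with limma adjusted p from 0.0501 to 0.0667. WASF3, a WAVE-family actin regulator, differed by -0.97 ± 0.31 (SE, limma adjusted p = 0.0121) at chr13:27131446-27131946, and in controls by 0.08. SLC7A1, a cationic amino acid transporter, differed by -0.77 ± 0.25 (SE, limma adjusted p = 0.0141) at chr13:30169747-30170247, with peaks in 9 treated Eahy926 and 5 treated TeloHAEC libraries, and in controls by 0.07. TPP2, which encodes a cytosolic peptidase, was also lower in controls, at -0.89 ± 0.26 in treated libraries (SE, limma adjusted p = 0.00746) and -0.70 in controls. PROSER1 and LMO7 differed in controls by 0.13 and -0.15. With the 30000 strongest peaks TPP2 (-0.45, limma adjusted p = 0.0512) and SLC7A1 (-0.36, limma adjusted p = 0.0826) lost the call, and at 80% overlap SLC7A1 (-0.52, limma adjusted p = 0.0824) and TMCO3 (-0.38, limma adjusted p = 0.39) did. With depth as a covariate SUGT1 (-1.10, limma adjusted p = 0.0556), SLC7A1 (-0.64, limma adjusted p = 0.0624) and, among the rises, MRPS31 (1.36, limma adjusted p = 0.0927) lost it.

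Most promoters of the best known genes of the chromosome did not pass the test. A panel of 30 genes had 20 with a tested region within 1 kb of the start, of which 3 rose, 1 fell and 16 did not pass. Of all 191 tested promoter regions on the chromosome 20.4% rose and 3.66% fell, so most of those did not pass either. Over the nearest regions of all 30 genes, wherever they lay, 6 rose, 2 fell and 22 did not pass, beside 41.6% risen and 8.77% fallen on the chromosome. These 30 genes had 28 regions, as COL4A1 and COL4A2 shared 1, and so did F7 and F10. The BRCA2 promoter region at chr13:32889450-32889950 had a peak in all 30 libraries and scored 0.84 to 2.74 with a median of 1.68 in treated TeloHAEC libraries and 1.18 to 3.30 with a median of 1.59 in Eahy926. The groups overlapped, and the difference was -0.20 ± 0.34 (SE, limma adjusted p = 0.64). TPT1, which encodes translationally controlled tumour protein, differed by -0.35 ± 0.32 (SE, limma adjusted p = 0.376) at chr13:45915154-45915654, and by more (-1.20, adjusted p = 0.00094) when lists were ordered by fold enrichment. The cell cycle inhibitor RB1 differed by 0.28 ± 0.32 (SE, limma adjusted p = 0.479), and HMGB1, a chromatin protein gene, by 0.54 ± 0.59 (SE, limma adjusted p = 0.459). The promoter shared by COL4A1 and COL4A2 differed by -0.05 ± 0.16 (SE, limma adjusted p = 0.811), and that of the transcription factor FOXO1 by -0.12 ± 0.11 (SE, limma adjusted p = 0.375). EFNB2, a neighbour by position of distal regions given above, differed by 0.21 ± 0.36 at its promoter (SE, limma adjusted p = 0.637). With lists ordered by fold enrichment this promoter was lower in TeloHAEC (-0.78, limma adjusted p = 0.046). In that setting the promoters of STARD13 (-1.25, limma adjusted p = 0.0159) and SPRY2 (-1.41, limma adjusted p = 0.000347) were lower too, though neither passed in the main fit.

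The gene lists are read against the whole chromosome, on which 41.6% of tested regions rose and 8.77% fell, with a median of 0.34. Of 71 tested regions within 50 kb of the 16 vascular and endothelial genes, 30 rose (42.3%) and 7 fell (9.86%), with a median of 0.28, shares near those of the chromosome. FLT1, the VEGF receptor 1 gene, had a peak in 9 treated TeloHAEC and 1 treated Eahy926 libraries at chr13:29041122-29041622, 28 kb from its start, and the difference was 2.75 ± 0.37 (SE, limma adjusted p = 1.38e-06). The region nearest its start, 5 kb away, scored at or near 0 in both lines and differed by 0.03 ± 0.07 (SE, limma adjusted p = 0.778). The region at chr13:49066583-49067083 rose by 3.52 ± 0.41 (SE, limma adjusted p = 1.36e-07). It lay 48 kb from LPAR6, a lysophosphatidic acid receptor gene, and nearer to RCBTB2, at 40 kb. GAS6, the ligand of TAM receptors, fell by 2.85 ± 0.46 at chr13:114600112-114600612, 33 kb from its start (SE, limma adjusted p = 1.55e-05).

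The promoter of the endothelin receptor gene EDNRB differed by 0.36 ± 0.12 (SE, limma adjusted p = 0.0184), and that of the cell cycle regulator RGCC by 0.33 ± 0.11 (SE, limma adjusted p = 0.0123). Both lost the call with depth as a covariate, and their values with window-centred scores, which move every region of a window alike, were -0.62 and -1.14. THSD1, a transmembrane protein gene, differed by 0.64 ± 0.26 at its promoter (SE, limma adjusted p = 0.0466), and the call was lost when any of 13 of the 18 libraries was left out, with adjusted p from 0.0501 to 0.0937. It was lost in 9 other settings too, among them lists ordered by fold enrichment (0.04, limma adjusted p = 0.906) and 80% overlap (0.18, limma adjusted p = 0.423). KL, the klotho gene, and SMAD9, a BMP signal transducer, had their nearest regions at 47 and 34 kb, and these rose by 0.60 ± 0.13 and 0.78 ± 0.21 (SE, limma adjusted p = 0.000758 and 0.00391). With the 30000 strongest peaks both lost the call, at 0.06 and 0.29 (limma adjusted p = 0.311 and 0.0904).

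The 4 coagulation and fibrinolysis genes had 10 tested regions, of which 4 rose (40%) and 1 fell (10%), with a median of 0.34, again near the chromosome's 41.6% and 8.77%. CPB2, which encodes a carboxypeptidase that slows fibrinolysis, had a peak in 9 treated TeloHAEC and 0 treated Eahy926 libraries at chr13:46694234-46694734, 15 kb from its start. The difference was 2.23 ± 0.32 (SE, limma adjusted p = 2.71e-06). The region nearest to F7 and F10 was the same for both and differed by 0.06 ± 0.10 (SE, limma adjusted p = 0.612).

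Near genes of other cell types more regions rose than fell in each list, as on the whole chromosome (41.6% and 8.77%). Of 46 regions near the 10 blood cell and immune genes, 21 rose (45.7%) and 1 fell (2.17%), with a median of 0.49. IL17D, a cytokine gene, rose by 2.92 ± 0.27 at chr13:21288965-21289465 (SE, limma adjusted p = 4.92e-09), and the region 34 kb from TNFSF11 rose by 3.44 ± 0.47 (SE, limma adjusted p = 1.42e-06). The 1 fall was 30 kb from LCP1, which encodes the leukocyte actin-bundling protein L-plastin, at chr13:46785781-46786281. It scored 0.42 to 3.04 in treated Eahy926 libraries and 0 to 0.29 in TeloHAEC, a difference of -1.60 ± 0.31 (SE, limma adjusted p = 0.000158).

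Epithelial genes, 13 in number, had 25 tested regions, of which 10 rose (40%) and 2 fell (8%), with a median of 0.37, beside 41.6% and 8.77% on the chromosome. KLF5, an epithelial transcription factor, rose by 1.42 ± 0.37 at chr13:73632675-73633175, 4 kb from its start (SE, limma adjusted p = 0.00283). This call was lost at 80% overlap, at 0.46 (adjusted p = 0.337), while the region 36 kb from its start rose by 1.37 ± 0.30 (SE, limma adjusted p = 0.000607). LMO7, whose product is found at cell junctions, fell by 0.42 ± 0.15 at its promoter (SE, limma adjusted p = 0.0226), and lost the call with depth as a covariate. The 6 mesenchymal and smooth muscle genes had 19 tested regions, of which 4 rose (21.1%) and 3 fell (15.8%), with a median of 0.03. MEDAG, an adipogenesis gene, rose by 2.05 ± 0.38 at chr13:31472912-31473412 (SE, limma adjusted p = 9.14e-05), and the falls near POSTN and LHFPL6 are given above.

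Neural and developmental genes, 28 in number, had 38 tested regions near 18 of them. Of these regions 15 rose (39.5%) and 6 fell (15.8%), with a median of 0.21, beside 41.6% and 8.77% on the chromosome. SLITRK1 and SLITRK5, which encode neuronal membrane proteins, had falls of 1.13 ± 0.20 at chr13:84470269-84470769 and of 1.06 ± 0.23 at chr13:88323237-88323737 (SE, limma adjusted p = 6.51e-05 and 0.000677). At 80% overlap the call near SLITRK5 was lost (-0.40, limma adjusted p = 0.0729). The region near SLITRK1 had a peak in 9 treated Eahy926 and 0 treated TeloHAEC libraries. GPR12, an orphan receptor gene, lay in a window that rose, and its region at chr13:27295232-27295732 rose by 1.253 ± 0.21 (SE, limma adjusted p = 2.68e-05).

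Of 139 regions near the 39 housekeeping genes, 45 rose (32.4%) and 8 fell (5.76%), with a median of 0.31, beside 41.6% and 8.77% on the chromosome. Of 67 regions near the 19 cell cycle and genome maintenance genes, 20 rose (29.9%) and 2 fell (2.99%), with a median of 0.37. The region at chr13:53002405-53002905, which lies within 50 kb of VPS36, CKAP2 and THSD1 and so counts in 3 lists, rose by 3.09 ± 0.60 (SE, limma adjusted p = 0.000166). Each of these medians lies near the 0.34 of the whole chromosome, apart from those of the mesenchymal, neural and blood cell lists, which rest on 19, 38 and 46 regions.

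Treatments changed few chromosome 13 regions. Each compound was set against the day 1 controls of the same line, which the 3 comparisons of a line share. IL1b changed 4 of 1511 regions in TeloHAEC by limma, all upwards, where 0.351% of 58703 autosomal regions changed. The clearest lay between LCP1 and LRCH1 at chr13:46915057-46915557. It scored 1.53, 2.03 and 2.25 in the 3 IL1b libraries and 0, 0.22 and 0 in the controls, a difference of 1.86 ± 0.40 (SE, limma adjusted p = 0.0339). With TNFa in the same line it differed by 0.56 ± 0.40.

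The other 3 calls scored 0 to 0.44 in the day 1 controls. They were chr13:36196087-36196587, 146 kb from MAB21L1 (1.18 ± 0.25, SE, limma adjusted p = 0.0357), chr13:44845130-44845630, 305 kb from TSC22D1 (1.89 ± 0.41, SE, limma adjusted p = 0.0373), and chr13:106834760-106835260, 352 kb from EFNB2 (1.31 ± 0.30, SE, limma adjusted p = 0.0497). These calls were fragile: the count was 0 when any 1 of the 3 TeloHAEC day 1 controls was left out, 2 without IL1b replicate 2, and 1 with only the IL1b and control libraries or with the replicate block. It was also 0 at 80% overlap, with normal scores and without the filter.

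In Eahy926, TNFa changed 1 of 992 regions, where 0.267% of 56638 autosomal regions changed. It lay 275 kb from TSC22D1 at chr13:44875206-44875706, and scored 0.80, 1.07 and 1.09 in the TNFa libraries and 0 in all 3 controls, a difference of 0.99 ± 0.22 (SE, limma adjusted p = 0.0445). The call was lost when any 1 of these 6 libraries was left out, and in 5 of the 7 other settings.

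The other comparisons called no chromosome 13 region by limma. TNFa in TeloHAEC changed 0.00341% of all autosomal regions. At an unadjusted p under 0.05 it had 131 of 1511 chromosome 13 regions (8.67%), beside 7.75% of 58703 autosomal regions. Its smallest p was at chr13:42979860-42980360, 168 kb from TNFSF11, with 1.86, 5.96 and 2.87 in the TNFa libraries and 0 in the 3 day 1 controls, although 3 of 3 day 0 controls had a peak there (3.57 ± 0.74, SE, limma adjusted p = 0.287). The second was chr13:67693580-67694080, 111 kb from PCDH9 (3.38 ± 0.83, SE, limma adjusted p = 0.411). VEGF withdrawal from TeloHAEC had 87 regions at an unadjusted p under 0.05 (5.76%), IL1b in Eahy926 46 of 992 (4.64%) and VEGF addition to Eahy926 53 (5.34%). The matching shares of all autosomal regions, also unadjusted, were 5.02%, 4.21% and 5.07%. By adjusted p, 0.0%, 0.00353% and 0.0% of all autosomal regions changed in these 3. After VEGF withdrawal the smallest p was at chr13:31551835-31552335, 72 kb from MEDAG, with 1.63, 1.72 and 1.85 against 5.06, 4.27 and 5.33 in the controls (-3.15 ± 0.77, SE, limma adjusted p = 0.894). In Eahy926 it was at chr13:24794163-24794663 with IL1b (0.89 ± 0.22, SE, limma adjusted p = 1) and at chr13:26796350-26796850 with VEGF (1.73 ± 0.49, SE, limma adjusted p = 0.968).

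No 5 Mb window of chromosome 13 passed the limma test in any of the 6 treatment comparisons, and 0.0% of all autosomal windows did. At an unadjusted p under 0.05 there were 1 or 2 windows in each comparison, of 19 in TeloHAEC and 21 in Eahy926. The matching shares of all autosomal windows ran from 4.12% (VEGF in TeloHAEC) to 11.6% (IL1b in TeloHAEC). The share of peaks on the chromosome stayed higher in TeloHAEC in each treatment group.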

How the data were processed

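The series holds 30 ATAC-seq libraries, each with 1 table of peaks called for that library alone. Tagmentation with Tn5 used about 200000 lysed cells and ran 1 h at 37 °C, per the labels' protocols. Alignment used Bowtie2 and hg19, and peak calling MACS2, per the submitters' processing notes; the version, 2.1.1.20160309, a p threshold of 0.001, no control library and 1 tag kept per position are stated per the file headers. The deposited tables give the authors' pileup (coverage in tags, a signal), p and q from the authors' caller on the -log10 scale, and its fold enrichment (the ratio to local background). There are no counts per region, so depth enters only through the lists, and limits weak peaks most. Libraries had 4016678 to 14040011 tags before duplicate removal.

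Summits of an interval were merged to the strongest. Each autosomal list was ranked by p (fold enrichment broke ties) and cut at 49774 peaks, as many as the shortest one had. Summit-centred regions came from the 45000 strongest peaks. A peak was assigned to a region at an overlap of at least 50% of the shorter, and the rank score was the log2 of 49774 plus 1 over the place, 0 without a peak. Local background was the pileup plus 1, over fold enrichment, minus 1. limma 3.58.1 in R 4.3.3 fitted scores (of regions that 3 or more fitted libraries had among their strongest peaks) with treatment as a covariate for lines, and log2(peaks + 1) for windows; p-values were two-sided, adjusted over all regions or windows, with a threshold of 0.05. Recovery was tested on simulated data. Python 3.11.15 handled the lists. Same-numbered libraries did not deviate together (median r -0.0058 in TeloHAEC and -0.0029 in Eahy926, 0 of 18 pairs above 0.1), so no block was used.

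Named regions were the 10 largest rises and 10 largest falls without overlap, a panel of 30 genes, up to 5 called regions per direction and treatment, or the 2 of smallest p (some are left out for brevity). The promoters with sequences, the leading regions of each list and the 2 Mb windows were chosen after their values were seen. Members, panel and lists were chosen with earlier results of these data known. Gene starts of 228 genes were written from general knowledge, as no hg19 annotation was used: 225 are on chromosome 13 in the RefSeq table, 224 of 224 neighbours are in the same order, and 59.6% of starts had a strong peak within 1 kb, against 1.96% and 3.25% of starts moved by 20 kb. Whether a region is exonic or intronic was not analysed here. RefSeq promoter sequences were matched for 205 of the 228 genes.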

Additional observations from a re-analysis of the deposited data

Results flagged for a closer look

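At some chromosome 13 regions, the response to a treatment differed between the lines by a test of the difference itself, a limma interaction over the 24 day 1 libraries adjusted over 77240 autosomal regions. In all, 5 of 1804 chromosome 13 regions were called for IL1b and 1 for TNFa, beside 202 and 40 of all 77240 autosomal regions. The shares called on chromosome 13 thus lay near those of all autosomal regions. Of these 6 calls, the 5 at regions named for the same treatment in the report are given here. The response to IL1b in TeloHAEC minus that in Eahy926 was 1.89 ± 0.35 at chr13:44845130-44845630 (SE, limma adjusted p = 0.0114), 1.86 ± 0.40 at chr13:46915057-46915557 (SE, limma adjusted p = 0.0381) and 1.18 ± 0.22 at chr13:36196087-36196587 (SE, limma adjusted p = 0.014). None of the Eahy926 libraries with IL1b or of the Eahy926 day 1 controls had a peak at these 3 regions. The difference of responses there restates the IL1b response of TeloHAEC given above, and is no separate support for it. Regions entered the fit with a strong peak in at least 3 libraries, which the 3 libraries of the group in which a region is high could meet alone, so the filter favoured such differences. Without the filter no chromosome 13 region was called for IL1b in TeloHAEC (0) or TNFa in Eahy926 (0), and the interaction was not fitted without it. At chr13:24794163-24794663, where neither line's own IL1b comparison passed the threshold, the difference of responses was -1.76 ± 0.38 (SE, limma adjusted p = 0.0358). For TNFa it was -0.99 ± 0.17 at chr13:44875206-44875706 (SE, limma adjusted p = 0.0126), where no TeloHAEC library with TNFa or of the day 1 controls had a peak. This value likewise restates, with the sign turned, the TNFa response of Eahy926 given above.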

How the results depend on the processing

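The difference between the lines kept its direction and size class for the counts of regions (698 higher, 147 lower) with lists ordered by fold enrichment, other overlaps, no filter, normal scores, a depth covariate, no treatment term and without the 3 shallowest libraries. Without the filter 620 rose and 127 fell, of 2341 tested. With the replicate block 689 rose and 144 fell. With the 30000 strongest peaks 382 rose and 69 fell, of fewer regions tested. Window-centred scores gave 174 and 436, of 1456 tested, which follows from subtracting a window's own shift from all its regions. Leaving out 1 library gave 645 to 698 and 130 to 147. Peaks per window (15 higher, 4 lower) gave 30 and 9 with 2 Mb and 9 and 2 with 10 Mb windows, 2 lower with the 30000 strongest peaks, and 15 to 16 and 4 to 5 without 1 library. The score of constitutive regions (10 and 0) gave 18 higher with 2 Mb windows and 3 higher and 1 lower with lists ordered by fold enrichment, where the cause was not tested; without 1 library it stayed at 10 and 0. Local background (12 and 0) gave 22 higher with 2 Mb windows, and 12 and 0 without any 1 library. In controls the share differed by 0.831 to 0.901 percentage points without 1 library, and windows without overlap numbered 23 at 2 Mb and 8 at 10 Mb, against 13.

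The 4 calls for IL1b in TeloHAEC became 0 at 80% overlap, without the filter and with normal scores, 1 with the replicate block and 1 with only the compared groups, and 0 to 6 without 1 library. The single call for TNFa in Eahy926 became 0 at 80% overlap, without the filter, with normal scores, with the replicate block, with only the compared groups, and 0 without any 1 library. TNFa in TeloHAEC gave 1 call with any overlap and 0 to 0 without 1 library. A window changed with TNFa in Eahy926 with the 30000 strongest peaks (1) and without TNFa replicate 3 (0 to 1 over libraries). The other treatment counts stayed at 0.

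Of 87 named regions, direction turned with window-centred scores, as that shift is subtracted from every region of a window, at those nearest FLT1 (-0.53), EDNRB (-0.62), KL (-0.0045), RGCC (-1.14), GJB2 (-0.56) and LHFPL6 (13 kb, -1.08), and with lists ordered by fold enrichment at EFNB2 (-0.78) and STARD13 (-1.25). The replicate block ended 1 of the named calls.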
